A study of Mus musculus with 12 samples.

Results

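The genes described are 10 enzymes that remove acetyl groups from lysines: the sirtuins Sirt1, Sirt2, Sirt3, Sirt6 and Sirt7, and the zinc-dependent histone deacetylases Hdac3, Hdac4, Hdac5, Hdac6 and Hdac7. They were taken by name from the raw count table, which lists 12208 genes, and all 10 were present and tested. RNA was counted in 4 lines of 393P, a mouse lung cancer line labelled epithelial and non-metastatic, with no treatment. One line carried GFP vector and served as control, another carried wild-type Zeb1 (WT), and the last 2 carried Zeb1 forms labelled deficient and mimetic, read here from the title of the series as acetylation-deficient and acetylation-mimetic. All 4 lines share the 393P background, each Zeb1 form is represented by 1 line, and the promoter that drives the introduced Zeb1 is not given in the sources used here. Each line had 3 libraries labelled as biological replicates, although the series design text speaks of 2 per sample. Nothing else says how separate the cultures were, so p-values measure only the spread between these libraries, and the Zeb1 form and the line cannot be told apart.

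Lysine acetylation is written by acetyltransferases and erased by these enzymes. Sirtuins consume NAD+ and sit in the nucleus (Sirt1, Sirt6), nucleolus (Sirt7), cytoplasm (Sirt2) or mitochondria (Sirt3). Hdac3 is a class I enzyme that works within the NCoR/SMRT corepressors, Hdac4, Hdac5 and Hdac7 are class IIa enzymes that shuttle between nucleus and cytoplasm and repress MEF2 factors, and Hdac6 is a cytoplasmic class IIb enzyme that deacetylates tubulin and cortactin. Zeb1 is a zinc-finger repressor of epithelial genes that recruits deacetylase-containing corepressors, which is why the RNA level of the erasers was examined beside its acetylation forms.

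Mimetic libraries held the fewest counts, 24.4 to 27.5 M, and the others 33.3 to 39 M (vector), 28.4 to 35.8 M (WT) and 31 to 33 M (deficient). Levels are CPM, that is, counts scaled to a library of common size, on TMM-normalised library sizes, and a gene was called changed at a Benjamini-Hochberg adjusted p under 0.05 from edgeR's quasi-likelihood test over all 12027 tested genes. Epithelial markers were present, with 7 of 10 listed genes in the table (Cdh1 and Krt8 among them) and a summed level of 9068 to 10492 CPM in vector against 4179 to 4331 in WT, with 7732 to 7865 for deficient and 5591 to 5762 for mimetic. Mesenchymal markers (7 of 7, Vim and Fn1 among them) summed to 5919 to 6487 CPM in vector, 6879 to 7189 in WT, 5989 to 6199 for mimetic and 5093 to 5331 for deficient. Of 7 immune markers only Cd68 was in the table, at 2.12 to 8.43 CPM, and 3 of 8 fibroblast markers summed to 1.07 to 3.47 CPM. The endothelial markers Pecam1 and Kdr (2 of 5) summed to 0.29 to 1.14 CPM in vector and WT, 2.61 to 3.11 in mimetic and 5.37 to 7.15 in deficient. Zeb1 RNA was highest in deficient (484 ± 13 CPM, SD, n = 3), followed by WT (244 ± 6.9) and mimetic (228 ± 12), with 31.3 ± 2.8 in vector, so the lines also differ in counted Zeb1 RNA. These data hold no measure of Zeb1 protein. The mitochondrially encoded share of counts moved with the line too, from 0.396 to 0.426% in WT up to 0.814 to 0.998% in vector. The part of these differences in the results was not tested. Vector replicate 3 and deficient replicate 3 differed most from the other libraries of their line (mean chi-square per gene 14.2 to 24.1, against 3.04 to 6.43 for the other pairs). Calls that rest on those libraries are named below.

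Most of the 10 enzymes differed between lines, but by little. An F test of any difference between the 4 lines called 8 of 10, against 80.9% of all tested genes, so the count is close to the background. Sirt3 (adjusted p = 0.0535) and Hdac7 (adjusted p = 0.624) were not called. Over the 6 pairs of lines, 32 of 60 differences were called, and 4 of them reached 1.5-fold, of which 3 involved Hdac6 and 1 involved Hdac5. Hdac6 had a range of 1.33 between its highest and lowest line on the log2 scale, wider than 87.3% of tested genes, and Hdac5 a range of 0.76, wider than 72.2%. The range was 0.10 in Hdac7, wider than only 1.7% of tested genes. The plot of CPM by library shows these levels.

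**Figure D1:**
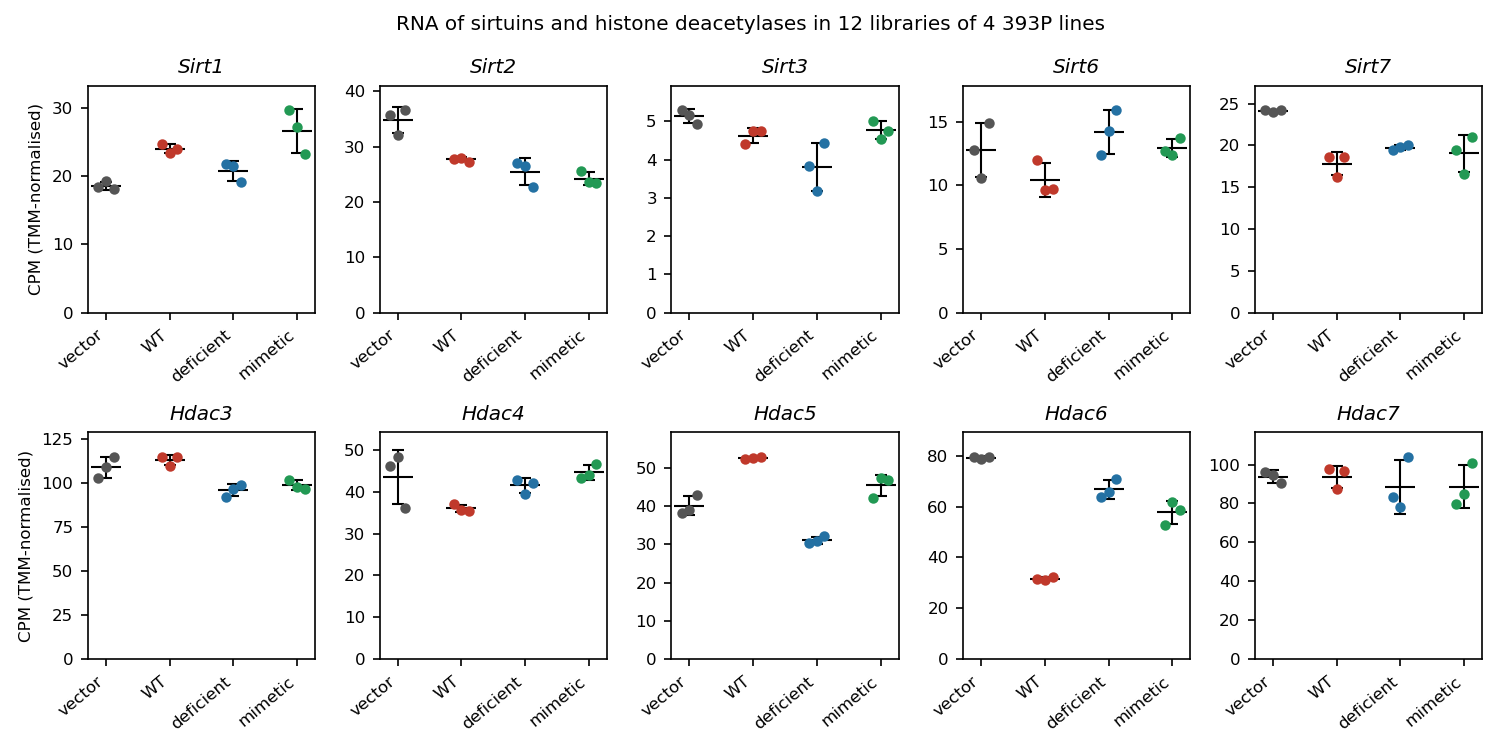
CPM of each of the 10 enzymes in every library, by line (points, 3 per line; black bars, mean and SD; each panel has its own axis from 0). Hdac6 sits at 31.1 to 32.2 CPM in the WT libraries and at 78.8 to 79.6 in vector, while the lines overlap throughout for Hdac7.

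Hdac6, the tubulin and cortactin deacetylase, changed in all 6 comparisons. It stood at 79.5, 78.8 and 79.6 CPM in the vector libraries, 63.6, 65.9 and 70.7 in deficient, 52.9, 61.7 and 58.8 in mimetic and 31.5, 31.1 and 32.2 in WT. No line overlapped another, and the order was vector, deficient, mimetic, WT. Against vector it fell 2.51-fold in WT (log2 fold change -1.33, SE 0.061, adjusted p = 1e-13), 1.37-fold in mimetic (-0.46, SE 0.059, adjusted p = 1.2e-06) and 1.19-fold in deficient (-0.25, SE 0.058, adjusted p = 0.000975). These 3 comparisons share the vector libraries. Both mutant lines were well above WT, deficient 2.11-fold (adjusted p = 7.88e-12) and mimetic 1.83-fold (adjusted p = 5.36e-10). Most genes of the same end of the chromosome were also above WT in both, as given below. The Hdac6 gap between the mutants was small, with mimetic lower by a log2 fold change of -0.21 (SE 0.059, adjusted p = 0.013). That call was lost without deficient replicate 3 (adjusted p = 0.0626) or without mimetic replicate 1 (adjusted p = 0.0958).

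Hdac6 lies on the X chromosome at 7930120 to 7947889 (minus strand, GRCm38, the assembly of mm10), with 5 annotated coding transcripts that end at 5 different positions, so isoforms are not separated here. The 250 bases before its RefSeq start (chrX:7947890-7948139) are shown with those of Hdac5 (chr11:102230173-102230422), the enzyme with the next widest range, both from RefSeq on GRCm38.p6 and printed on the minus strand, 5′ to 3′. Capitals mark CACCTG in either orientation, an E-box sequence bound by Zeb1.
Hdac6: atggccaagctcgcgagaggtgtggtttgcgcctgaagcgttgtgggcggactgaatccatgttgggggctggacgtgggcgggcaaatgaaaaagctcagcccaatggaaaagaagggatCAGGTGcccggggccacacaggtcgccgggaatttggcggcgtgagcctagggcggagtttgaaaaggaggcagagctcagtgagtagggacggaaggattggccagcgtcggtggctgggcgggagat
Hdac5: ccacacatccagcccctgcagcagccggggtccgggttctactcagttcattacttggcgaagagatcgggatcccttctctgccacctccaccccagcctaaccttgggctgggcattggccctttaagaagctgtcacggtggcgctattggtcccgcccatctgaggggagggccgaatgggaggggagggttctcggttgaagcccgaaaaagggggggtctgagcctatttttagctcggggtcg
The Hdac6 window holds this sequence once, as CAGGTG at position -129 relative to the start, and the Hdac5 window does not hold it. Only 1 start was read for each, while the gene annotation lists 3 coding starts for Hdac6 and 6 for Hdac5. Of the 14 RefSeq starts listed for 9 of the members (none is printed for Hdac3), 1 had CACCTG on either strand, against 17.2% of 32851 promoter windows of the same length. The related TACCTG, also on either strand, was in 1 start of Hdac7 (position -59), against 10% of all windows. A match of letters is a description and not a binding site.

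The genes around Hdac6 were lower in WT as well. Of the 19 other genes within 500 kb that averaged at least 5 CPM, 18 were called lower in WT than in vector, with a median log2 fold change of -0.82 (range -1.71 to -0.24). They include the histone methyltransferase Suv39h1 (59 to 33.5 CPM), the deubiquitinase Otud5 (91.6 to 47.9 CPM) and the sterol isomerase Ebp (104 to 50.2 CPM). The stretch was wider than that window. Over the first 30 Mb of the chromosome, 45 of 49 such genes were called lower in WT (91.8%, against 33.6% of all tested genes), with a median of -0.82, while the 227 genes beyond had a median of 0.10. In the other lines the same 49 genes had medians against vector of 0.03 (deficient) and -0.10 (mimetic). Relative to WT, 48 of 49 were called higher in deficient and 48 in mimetic. Their medians over WT were 0.82 in deficient and 0.75 in mimetic, where Hdac6 was at 1.08 and 0.87. Of the 49, 11 lay above Hdac6 in deficient and 17 in mimetic. A change of Hdac6 itself and a change of this end of the X chromosome in the WT line cannot be told apart. Single genes of the stretch varied, with quartiles of -1.03 and -0.55 in WT against vector. Hdac6 was 0.51 further below vector than the median of the 49 in WT on the log2 scale (hdac6 -1.33, median -0.82), and 6 of the 49 fell further. In deficient and mimetic, where the median of these genes was near the vector level, Hdac6 lay below that median by a difference of -0.28 and -0.36. There 6 (deficient) and 4 (mimetic) of the 49 lay below Hdac6. What part of these gaps belongs to Hdac6 itself was not tested. The 30 Mb limit was set after the values were seen, and no test was made of it.

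**Figure D2:**
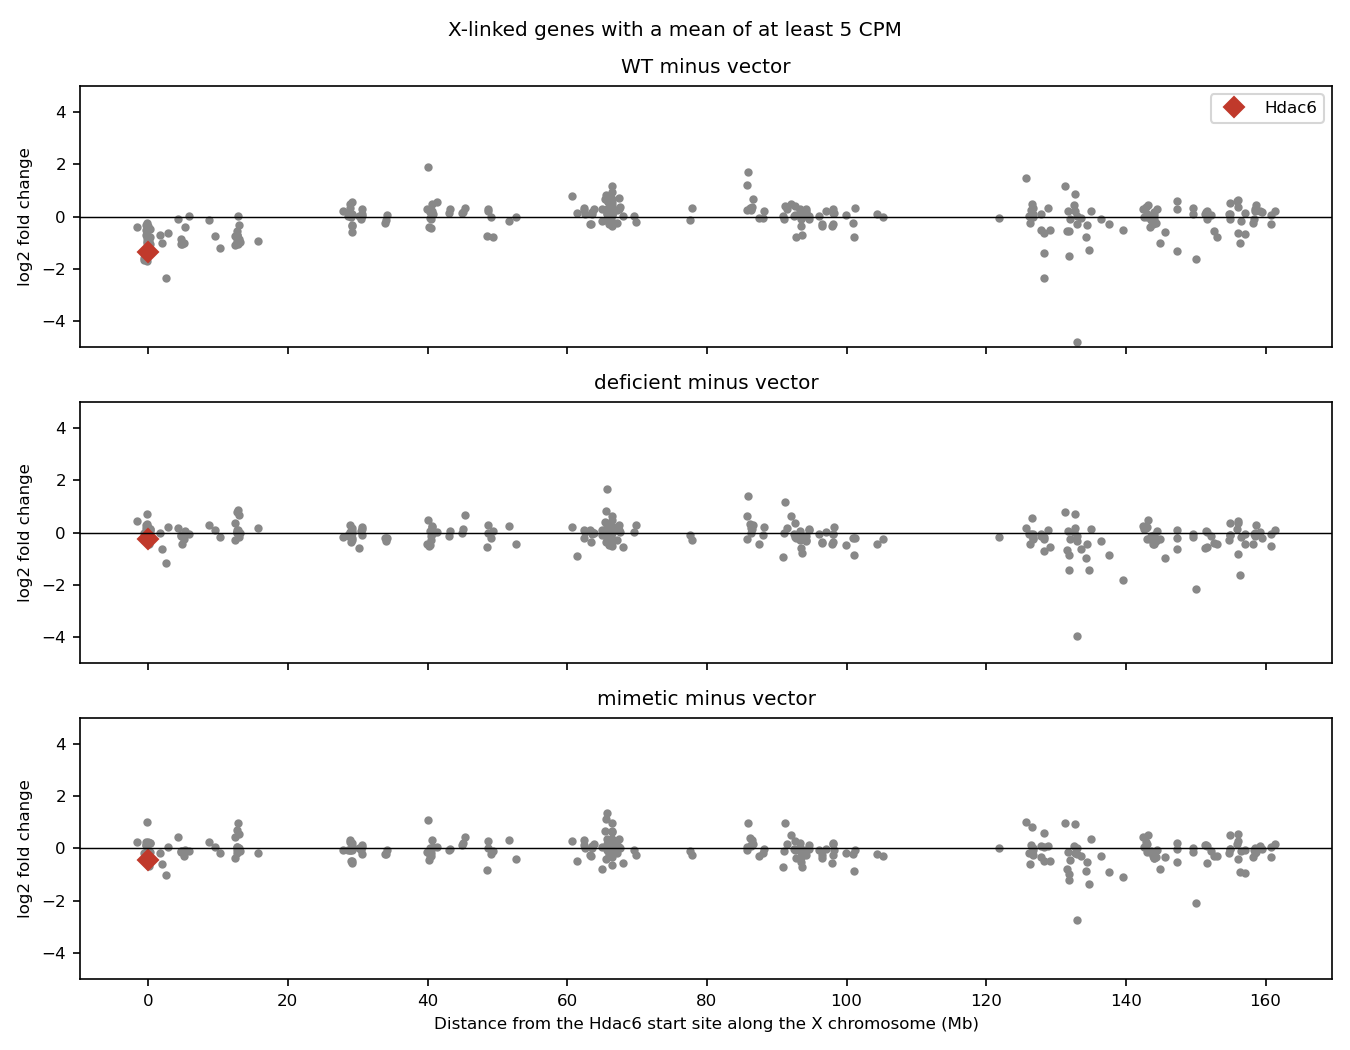
Log2 fold change against vector of 276 X-linked genes with a mean of at least 5 CPM (grey points) and of Hdac6 (red diamond), by distance in Mb from the Hdac6 start site, for WT, deficient and mimetic. In WT 45 of the 49 genes of the first 30 Mb were called lower (median -0.82), and in deficient and mimetic their medians are 0.03 and -0.10.

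Hdac5, a class IIa repressor of MEF2 factors (chromosome 11, 102194432 to 102230166, minus strand), moved in opposite directions in the Zeb1 lines. It was 38.2, 39.1 and 43 CPM in vector, 52.2, 52.7 and 52.9 in WT, 42.2, 47.4 and 46.7 in mimetic and 30.4, 30.8 and 32.1 in deficient. Every WT library was above, and every deficient library below, all vector libraries, whereas mimetic overlapped vector. Hdac5 rose 1.31-fold in WT (log2 fold change 0.39, SE 0.062, adjusted p = 1.52e-05) and fell 1.29-fold in deficient (-0.37, SE 0.064, adjusted p = 5.17e-05). The direct comparison placed deficient 1.69-fold below WT (adjusted p = 3.66e-09) and mimetic 1.46-fold above deficient (adjusted p = 1.61e-06). The rise in mimetic over vector was 0.18 on the log2 scale (adjusted p = 0.0188), a call lost without mimetic replicate 2 or 3 or without vector replicate 1 or 2 (adjusted p = 0.0607 to 0.088). Mimetic was below WT by -0.21 (adjusted p = 0.00962), which was lost without mimetic replicate 1 (adjusted p = 0.0651). The 15 genes within 500 kb had medians of -0.09, -0.23 and -0.21 against vector in WT, deficient and mimetic, while Hdac5 itself was at 0.39 in WT.

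Hdac4, a class IIa enzyme like Hdac5 (chromosome 1, 91928779 to 92195699), was lower in WT than in the other lines. It measured 37, 35.7 and 35.5 CPM in WT, 42.9, 39.6 and 42.1 in deficient, 43.3, 44 and 46.7 in mimetic and 46.2, 48.4 and 36.1 in vector. Vector replicate 3 fell within the WT range, and both mutants lay wholly above WT. Hdac4 fell against vector in WT (log2 fold change -0.27, SE 0.082, adjusted p = 0.00686) and was higher in mimetic than in WT by 0.31 (SE 0.083, adjusted p = 0.00464). The WT fall was not called without vector replicate 2 (-0.19, adjusted p = 0.0564). Deficient exceeded WT by 0.20 (adjusted p = 0.0434), a call lost with limma-voom (adjusted p = 0.0539), with RLE size factors (adjusted p = 0.0519), or without deficient replicate 1 or 3 or any WT replicate (adjusted p = 0.0813 to 0.129). Deficient against vector was -0.07 (adjusted p = 0.496), called lower at -0.19 without vector replicate 3 (adjusted p = 0.0148) and 0.01 without vector replicate 2. Mimetic against vector was 0.04 (adjusted p = 0.705) and turned to -0.08 without vector replicate 3.

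Hdac7, the other class IIa enzyme here (chromosome 15, 97792664 to 97844502), did not differ between lines beyond the spread of its libraries. Its mean was 93.8 ± 3.2 CPM in vector and 93.8 ± 5.7 in WT, and 88.5 ± 11 in mimetic and 88.3 ± 14 in deficient (SD, n = 3), and all 4 ranges overlapped. The 95% interval of WT minus vector on the log2 scale was -0.18 to 0.18, so a difference of that size is not excluded. Deficient replicate 3, at 104 CPM against 83.4 and 78 for its partners, lay above the range of the other libraries of that line. Without it Hdac7 was called lower in deficient than in vector (-0.22, adjusted p = 0.0184) and than in WT (-0.22, adjusted p = 0.0208). Exons of Hdac7 overlap Slc48a1 on the opposite strand, which rose in WT (211 to 318 CPM). Strand use in the authors' counting is not given in the sources used here.

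Hdac3, the catalytic subunit of NCoR/SMRT (chromosome 18, 37935844 to 37955016), was slightly lower in both mutants. It was 103, 109 and 115 CPM in vector, 115, 110 and 115 in WT, 92.2, 96.7 and 99.2 in deficient and 102, 98 and 96.6 in mimetic. Deficient and mimetic lay wholly below vector and below WT, while WT and vector overlapped. Relative to WT, Hdac3 was lower by log2 fold changes of -0.24 in deficient (SE 0.049, adjusted p = 0.000355) and -0.20 in mimetic (SE 0.049, adjusted p = 0.00286). It fell by 0.18 in deficient against vector (adjusted p = 0.00296). The fall in mimetic against vector was -0.14 (adjusted p = 0.0182) and was not called with library-size scaling (-0.07, adjusted p = 0.238), when only those lines were fitted (adjusted p = 0.0508), or without mimetic replicate 2 or 3 or vector replicate 3 (adjusted p = 0.0547 to 0.0903). WT and vector differed by 0.05 (95% interval -0.05 to 0.16).

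Sirt1, the nuclear NAD+-dependent deacetylase (chromosome 10, 63319005 to 63381704, minus strand), was the only member whose lowest mean was in vector. It stood at 18.4, 19.2 and 18.1 CPM in vector, 24.7, 23.4 and 23.9 in WT, 21.8, 21.4 and 19.1 in deficient and 29.6, 27.1 and 23.2 in mimetic. WT and mimetic lay wholly above vector, and deficient overlapped it. Sirt1 rose 1.43-fold in mimetic (log2 fold change 0.52, SE 0.086, adjusted p = 2.54e-05) and 1.29-fold in WT (0.37, SE 0.085, adjusted p = 0.000761). Mimetic was 1.28-fold above deficient (adjusted p = 0.00347), and mimetic and WT were not told apart (0.15, adjusted p = 0.156), except without mimetic replicate 3 (0.24, adjusted p = 0.0292). Deficient against vector was 0.16 (adjusted p = 0.108) and was called with library-size scaling (0.21, adjusted p = 0.0436) or without deficient replicate 3 (0.22, adjusted p = 0.0463). Deficient was called below WT at -0.21 (adjusted p = 0.0468), which was lost with the filter at 5 CPM (adjusted p = 0.0749), with library-size scaling (adjusted p = 0.085), or without deficient replicate 2 or 3 or any WT replicate (adjusted p = 0.057 to 0.173).

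Sirt2, the cytoplasmic tubulin deacetylase (chromosome 7, 28766735 to 28788661, plus strand), fell in every Zeb1 line. It was 35.7, 32.2 and 36.6 CPM in vector, 27.8, 28 and 27.3 in WT, 27.1, 26.6 and 22.7 in deficient and 25.6, 23.6 and 23.5 in mimetic. No library of a Zeb1 line reached the lowest vector library. The falls were 1.26-fold in WT (adjusted p = 0.000697), 1.37-fold in deficient (adjusted p = 3.72e-05) and 1.44-fold in mimetic (log2 fold change -0.52, SE 0.077, adjusted p = 6.8e-06). Among the Zeb1 lines no difference was called. The nearest was mimetic below WT by -0.19 (adjusted p = 0.0524), which was called with DESeq2 (adjusted p = 0.0436), with RLE size factors (adjusted p = 0.0468), with the replicate number as a block (adjusted p = 0.0496), when only those lines were fitted (adjusted p = 0.0231) or without mimetic replicate 1 (adjusted p = 0.0426). Sirt2 exons overlap Nfkbib on the opposite strand, which fell beside it (20.4 CPM in vector against 12.8 for WT, 15.3 for deficient and 13.3 for mimetic), and the part of that overlap in the counts was not tested. The 675 other chromosome 7 genes of at least 5 CPM had medians of -0.23, -0.24 and -0.17 against vector in WT, deficient and mimetic.

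Sirt7, the nucleolar sirtuin tied to RNA polymerase I transcription (chromosome 11, 120618372 to 120625240, minus strand), likewise fell in every Zeb1 line. Vector libraries gave 24.2, 24 and 24.2 CPM, WT 18.6, 16.2 and 18.6, deficient 19.4, 19.8 and 20, and mimetic 19.5, 16.6 and 21. All Zeb1 libraries were below all vector libraries, and the mutants were not told apart from WT or from each other. Log2 fold changes against vector were -0.44 in WT (SE 0.085, adjusted p = 0.000128), -0.34 in mimetic (SE 0.086, adjusted p = 0.00185) and -0.29 in deficient (SE 0.084, adjusted p = 0.00565). An exon of Sirt7 overlaps Mafg, a small MAF factor, on the same strand. Mafg fell in the same comparisons by -0.58, -0.44 and -0.35 from a vector level of 85.7 CPM, and how far its tags enter the Sirt7 counts was not tested.

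Sirt6, a nuclear sirtuin of telomeric chromatin and DNA repair (chromosome 10, 81621785 to 81627797), had its lowest mean in WT. Its values were 12.8, 10.6 and 14.9 CPM in vector, 12, 9.62 and 9.72 in WT, 12.4, 14.3 and 15.9 in deficient and 12.7, 12.4 and 13.7 in mimetic. Deficient exceeded WT in every library, by 1.36-fold (adjusted p = 0.00525). WT was called below vector by -0.30 (adjusted p = 0.0422) although the libraries overlapped, and the call was lost with library-size scaling (adjusted p = 0.0552), when only those lines were fitted (adjusted p = 0.065), or without vector replicate 1 or 3 or WT replicate 2 or 3 (adjusted p = 0.0815 to 0.258). Without vector replicate 3 the value was -0.17. Mimetic above WT by 0.31 missed the threshold (adjusted p = 0.0515) and passed it with DESeq2 (adjusted p = 0.0477), with the replicate number as a block (adjusted p = 0.0448), with library-size scaling (adjusted p = 0.023), with the 5 CPM filter (adjusted p = 0.0426), when only those lines were fitted (adjusted p = 0.0179) or once WT replicate 1 was left out (adjusted p = 0.0225).

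Sirt3, the main mitochondrial deacetylase (chromosome 7, 140863666 to 140882309), had the lowest counts, 102 to 187 per library. Means were 5.13 ± 0.18 CPM in vector, 4.63 ± 0.2 in WT, 4.78 ± 0.24 in mimetic and 3.81 ± 0.63 in deficient (SD, n = 3). The deficient libraries (3.83, 3.17 and 4.43 CPM) were all below the vector libraries (5.29, 5.17 and 4.94), a log2 fold change of -0.43 (SE 0.14, adjusted p = 0.0136). This call was lost without deficient replicate 2 (-0.31, adjusted p = 0.086). Without deficient replicate 3, Sirt3 was also called lower in deficient than in WT (-0.40, adjusted p = 0.0384; -0.28 and adjusted p = 0.105 with it) and higher in mimetic than in deficient (0.45, adjusted p = 0.0457; 0.33 and adjusted p = 0.106 with it). At this depth the 95% interval of WT minus vector ran to 0.15 on the upper side and that of mimetic minus vector to 0.19. Sirt3 exons overlap Ric8a and Psmd13 on the opposite strand, both far more abundant (73.8 and 72.5 CPM in deficient). Against vector, Psmd13 was called lower in deficient only (log2 fold change -0.27, adjusted p = 0.000131), as Sirt3 was. Ric8a was called lower in deficient (-0.15, adjusted p = 0.0347) and in mimetic (-0.17, adjusted p = 0.0158). The part of these overlaps in the Sirt3 counts was not tested.

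Read by comparison, in the WT line against the vector line 5 of 10 enzymes fell (Sirt2, Sirt6, Sirt7, Hdac4, Hdac6, the last with 45 of 49 genes of its end of the X chromosome) and 2 rose (Sirt1, Hdac5), where 64.6% of all genes were called (33.6% fell and 31% rose). In deficient against vector 6 fell (Sirt2, Sirt3, Sirt7, Hdac3, Hdac5, Hdac6; 58.2% of all genes were called, and 29.8% fell) and none rose (0 by edgeR's quasi-likelihood test, 0 also at an unadjusted p under 0.05, by DESeq2 and by limma-voom; background 28.4%). With library-size scaling 1 rose (Sirt1), as it did without deficient replicate 3. In mimetic against vector 4 fell (Sirt2, Sirt7, Hdac3, Hdac6; background 30.9%) and 2 rose (Sirt1, Hdac5; background 28.6%), which was 1 without vector replicate 1 or 2 or mimetic replicate 2 or 3. Their median log2 fold changes were -0.21, -0.22 and -0.09, beside -0.01, 0 and 0 over all genes. The 3 comparisons share the vector libraries.

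Mimetic against deficient sets the mutants side by side. Sirt1 and Hdac5 were higher in mimetic (2 of 10, background 12.6%) and Hdac6 lower (1 of 10, background 14.9%), and the Hdac6 call was lost without deficient replicate 3 or mimetic replicate 1, leaving 0. In the mimetic line against the WT line, 44.9% of all tested genes were called. Hdac4 and Hdac6 were higher, Hdac6 with 48 of 49 genes of its chromosome end (2 of 10, background 23.1% of all genes). Hdac3 and Hdac5 were lower (2 of 10, background 21.8%). In deficient against WT, 53.8% of all tested genes were called. Sirt6, Hdac4 and Hdac6 were higher, Hdac6 again with 48 of 49 (3 of 10, background 27.5% of all genes). Sirt1, Hdac3 and Hdac5 were lower (3 of 10, background 26.3%). Both comparisons share the WT libraries. The background of mimetic depends on scaling: with library size only, 4334 genes rose and 3004 fell against vector (3438 and 3720 with TMM), 1982 and 1509 against deficient (1510 and 1789), and 3506 and 1980 against WT (2780 and 2618). The plot of log2 fold changes with intervals sets these differences side by side.

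**Figure D3:**
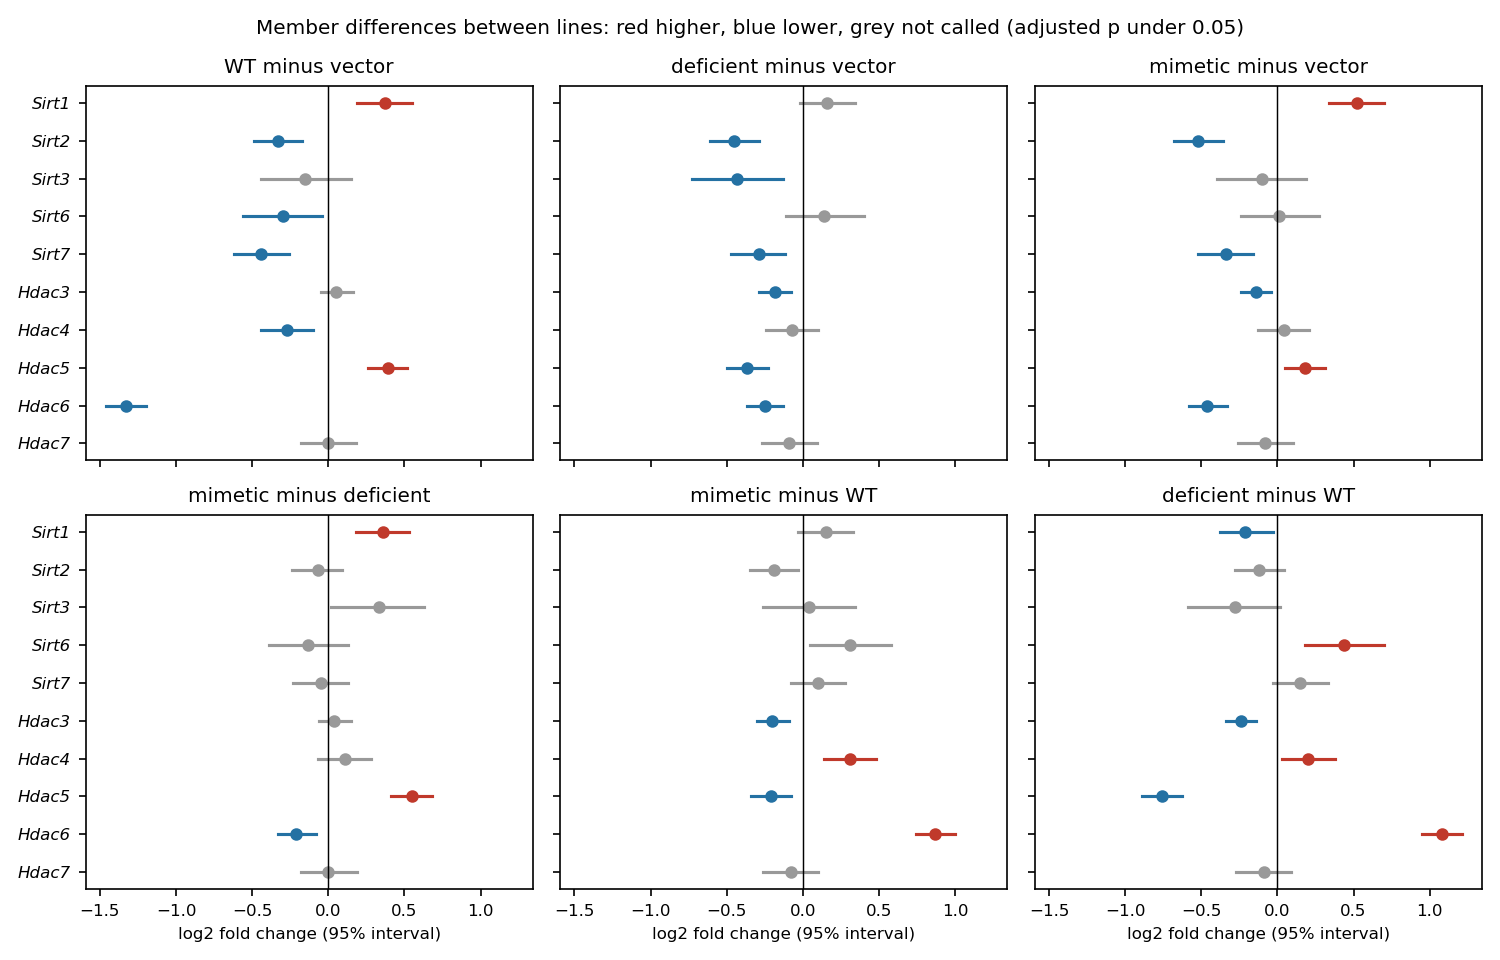
Log2 fold change of each enzyme in the 6 comparisons (points) with 95% intervals (lines). Red marks genes called higher, blue lower and grey not called at an adjusted p under 0.05, and Hdac6 in WT minus vector, at -1.33, lies furthest from 0.

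Of the other 8 classical deacetylases and sirtuins, 7 were in the table, and Hdac9 was not analysed here. The mitochondrial desuccinylase Sirt5 fell in all 3 Zeb1 lines, from 20.7 ± 2.9 CPM in vector to 13.7 ± 1.2 in WT, 12.6 ± 1.8 in deficient and 13.1 ± 1.6 in mimetic. So did the polyamine deacetylase Hdac10, the class IIb partner of Hdac6, from 36.2 ± 0.81 CPM to 26.2 ± 2, 27.4 ± 1.5 and 29.4 ± 2.7. Hdac11 rose 1.58-fold in WT, 1.57-fold in deficient and 1.21-fold in mimetic, the last of which was not called without vector replicate 2 (log2 fold change 0.22). The NuRD subunit Hdac1 had its highest mean in WT and its lowest in deficient, at 55.7 ± 0.83 CPM in WT, 47.1 ± 2.3 in vector, 46.4 ± 1.1 in mimetic and 39.1 ± 3.5 in deficient. The same held for the means of Hdac3, Hdac5 and Hdac7, though Hdac7 was called in no comparison. Hdac2, a class I enzyme like Hdac1, rose 1.21-fold in WT (adjusted p = 7.13e-05), from 146 ± 3.1 to 176 ± 9.5 CPM, and 1.1-fold in mimetic (adjusted p = 0.0193), the latter not called without mimetic replicate 1 or vector replicate 1. Sirt4 and Hdac8 were not called in the F test (adjusted p = 0.254 and 0.239).

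The summed CPM of the 17 genes was then split by class, which is possible because 3′ tags do not scale with transcript length, although tag yield can differ between 3′ ends. Class IIb (Hdac6 and Hdac10) made up 15.5% ± 0.065 of the sum in vector and 7.99% ± 0.2 in WT (SD, n = 3), with 13.9% ± 0.55 for deficient and 12.3% ± 0.3 for mimetic, and no line overlapped another. Hdac6 alone was 10.7% of the sum in vector and 4.37% in WT. Class I (Hdac1, Hdac2, Hdac3 and Hdac8) held 42.2% ± 0.94 in vector and 49.3% ± 1.1 in WT, with 43.9% ± 1.7 in deficient and 45% ± 1.7 in mimetic. The class IIa and sirtuin shares varied less, from 23.7 to 25.2% and from 14.9 to 16.8%. These shares are descriptions, with no test.

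**Figure D4:**
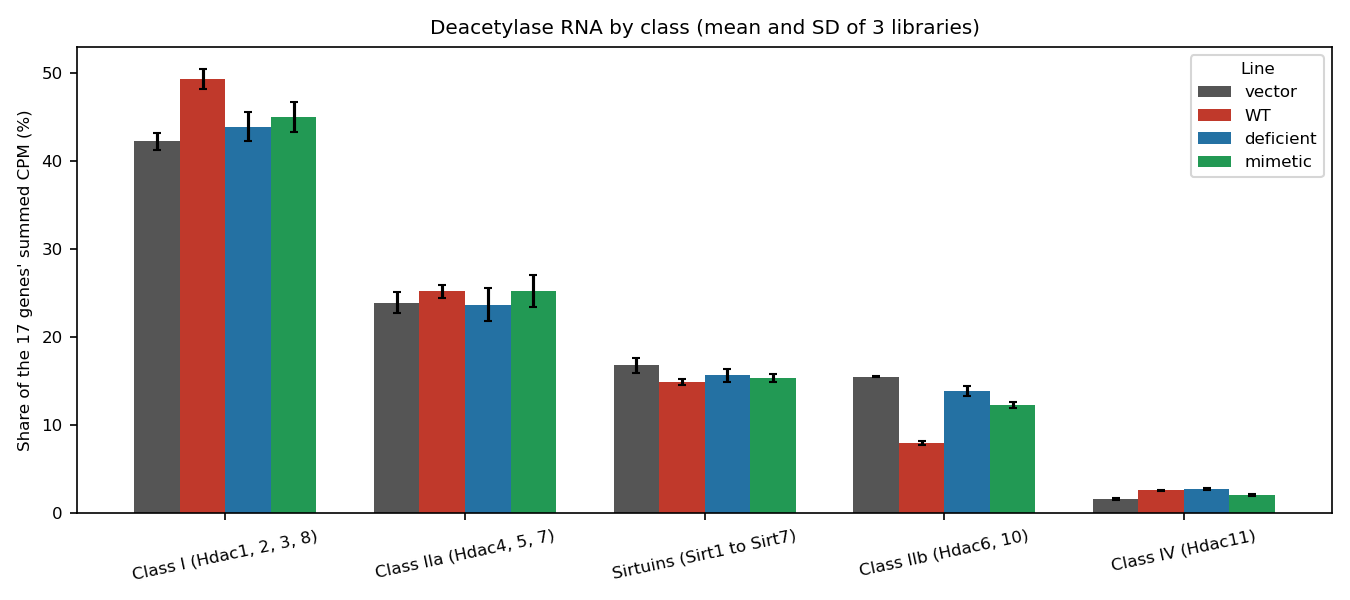
Share of the summed CPM of 17 deacetylase and sirtuin genes held by each class, by line (bars, mean; error bars, SD of 3 libraries). The class IIb share is 15.5% in vector and 7.99% in WT, and the class I share is 42.2% and 49.3%.

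Partner genes of these enzymes were read from lists written for each, and every count against vector is to be set beside the share of all tested genes: 31% rose and 33.6% fell in WT, 28.4% and 29.8% in deficient, and 28.6% and 30.9% in mimetic. In the NCoR/SMRT list, all 7 genes were tested. Against vector 2 fell in WT (28.6%), 3 fell and 1 rose in deficient (42.9 and 14.3%), and 2 fell in mimetic (28.6%). By edgeR's quasi-likelihood test 0 rose in WT and in mimetic, also at an unadjusted p under 0.05, by DESeq2 and by limma-voom. In mimetic 1 fell without any one mimetic replicate or without vector replicate 1 or 2, and 1 rose without vector replicate 2. In WT 1 rose without vector replicate 3 and deficient replicate 3 together. Ncor1, the corepressor that activates Hdac3, dropped from 499 ± 46 CPM in vector to 334 ± 9.1 in WT, 296 ± 4.2 in deficient and 311 ± 15 in mimetic, 1.69-fold at its lowest (deficient, adjusted p = 2.29e-10). Kdm4a, a histone demethylase, was 148 ± 8.6 CPM in deficient and 124 ± 4.1 in mimetic (adjusted p = 0.000298). Tbl1xr1, an exchange factor of the complex, fell 1.17-fold in WT (adjusted p = 0.000112), and Zbtb33, which recruits it to methylated DNA, was 1.55-fold lower in deficient than in WT (adjusted p = 0.00408).

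Of 24 tested genes for MEF2 factors, phosphoserine-binding adaptors and kinases that control class IIa enzymes, 9 rose and 8 fell in WT against vector, 8 rose and 12 fell in deficient, and 6 rose and 9 fell in mimetic. In WT these are 37.5 and 33.3% of the list, near the 31 and 33.6% of all genes, in deficient 33.3 and 50%, against 28.4 and 29.8%, and in mimetic 25 and 37.5%, against 28.6 and 30.9%. The 12 that fell in deficient were 9 without vector replicate 2 or with the 5 CPM filter, and 10 with library-size scaling. The AMPK subunit Prkaa2 had the widest change, from 0.241 ± 0.052 CPM in vector to 6.05 ± 0.19 in WT (adjusted p = 1.03e-13), 4.98 ± 0.44 in deficient and 5.44 ± 0.31 in mimetic. The adaptor Ywhaq rose 1.54-fold in WT (adjusted p = 3.31e-11) and the kinase Mark3 1.6-fold in deficient (adjusted p = 4.46e-11), while the kinase Camk2d fell 1.53-fold in WT (adjusted p = 3.75e-11). Medians of the list were 0.01, -0.14 and -0.07.

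In the list on tubulin acetylation and aggresomes, the cell biology of Hdac6 and Sirt2, all 15 genes were tested, and 7 rose and 5 fell in WT, 4 and 3 in deficient, and 4 and 5 in mimetic against vector. The shares that rose were 46.7, 26.7 and 26.7%, against 31, 28.4 and 28.6% of all genes, and those that fell 33.3, 20 and 33.3%, against 33.6, 29.8 and 30.9%. In deficient 5 fell without deficient replicate 3, and in mimetic 2 rose without vector replicate 1 and 3 fell with library-size scaling. The tubulin Tuba1a rose 1.73-fold in WT (adjusted p = 5.3e-11) and the dynein light chain Dynll1 1.54-fold in mimetic (adjusted p = 3.01e-11). The Hdac6 substrate cortactin (Cttn) fell 1.48-fold in WT (adjusted p = 8.61e-11), from 698 ± 20 to 470 ± 5.5 CPM, with 567 ± 24 in deficient and 521 ± 5.9 in mimetic. The autophagy receptor Sqstm1 fell 1.37-fold in WT (adjusted p = 9.65e-09). The means of Cttn and Sqstm1 had the line order of Hdac6. Those of Tuba1a ran the opposite way, from 106 CPM (vector) to 183 (WT), with deficient at 116 and mimetic at 136. Dynll1 followed neither order. The summed epithelial markers given above also had the Hdac6 order, so it is not particular to this list. The share of all genes with that order was not counted.

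Genes of NAD+ synthesis, salvage and consumption, which set the cosubstrate of sirtuins, gave 16 tested, of which 5 rose and 4 fell in WT, 6 and 5 in deficient, and 7 and 6 in mimetic against vector. The shares that rose were 31.2, 37.5 and 43.8%, against 31, 28.4 and 28.6% of all genes, and those that fell 25, 31.2 and 37.5%, against 33.6, 29.8 and 30.9%. With library-size scaling 3 instead of 6 fell in mimetic. Nampt, the rate-limiting enzyme of NAD+ salvage, rose from 201 ± 3.6 CPM in vector to 292 ± 7.7 in WT (1.45-fold, adjusted p = 3.89e-10), 275 ± 8.7 in deficient and 239 ± 7.7 in mimetic. The riboside kinase Nmrk1 rose 2.14-fold in WT (adjusted p = 7.52e-08). Nadsyn1, the last enzyme of the de novo route, fell 1.78-fold in mimetic (adjusted p = 3.28e-08), and the NAD+-consuming tankyrase Tnks2 1.41-fold (adjusted p = 1.83e-09).

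Among regulators and nuclear targets of Sirt1, 15 were tested, of which 4 rose and 7 fell in WT, 5 and 6 in deficient, and 2 and 5 in mimetic against vector. The shares that rose were 26.7, 33.3 and 13.3%, against 31, 28.4 and 28.6% of all genes, and those that fell 46.7, 40 and 33.3%, against 33.6, 29.8 and 30.9%. The 2 risers in mimetic were 4 with DESeq2, RLE size factors, library-size scaling, the 5 CPM filter, the replicate block or a fit of only those lines. Rps19bp1, an activator of Sirt1, rose 1.55-fold in deficient (adjusted p = 3.28e-07), with 23.7 ± 1.8 CPM in vector and 35.8 ± 1.3 to 36.6 ± 3 in the Zeb1 lines. The coactivator Ppargc1b fell from 3.98 ± 0.96 CPM to 0.386 ± 0.12 in WT (adjusted p = 9.89e-09). The deubiquitinase Usp22 fell 1.38-fold in WT (adjusted p = 8.42e-08), and Nr1h2, a liver X receptor, 1.34-fold in deficient (adjusted p = 7.42e-06).

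Of the mitochondrial enzymes known as Sirt3 substrates, 17 were tested, of which 4 rose and 6 fell in WT, 4 and 9 in deficient, and 4 and 8 in mimetic against vector, with medians of -0.04, -0.13 and -0.11. The share that fell was 35.3% in WT, near the 33.6% of all genes, 52.9% in deficient (all genes 29.8%) and 47.1% in mimetic (30.9%), and the share that rose was 23.5% in each (31, 28.4 and 28.6%). The 4 risers in WT were 2 without vector replicate 1 and 7 without vector replicate 3 and deficient replicate 3 together, and the 4 in deficient were 1 without vector replicate 1, 2 without vector replicate 2 or deficient replicate 2, and 2 when only those lines were fitted. Acadm, of fatty acid oxidation, fell 1.68-fold in WT (adjusted p = 1.67e-12), Got2, of the malate-aspartate shuttle, 1.6-fold in mimetic (adjusted p = 1.64e-11) and the succinate dehydrogenase subunit Sdha 1.56-fold in deficient (adjusted p = 5.77e-10). Glud1, glutamate dehydrogenase, rose 1.39-fold in WT (adjusted p = 4.77e-10). The mitochondrially encoded share of counts given above was also lower in these lines than in vector, and its part in these differences was not tested. Of the nucleolar genes around Sirt7, 18 were tested, of which 7 rose and 8 fell in WT (5 fell with library-size scaling or without vector replicate 3, WT replicate 2 or WT replicate 3), 7 and 4 in deficient, and 6 and 3 in mimetic (10 rose with library-size scaling). The shares that rose were 38.9, 38.9 and 33.3%, against 31, 28.4 and 28.6% of all genes, and those that fell 44.4, 22.2 and 16.7%, against 33.6, 29.8 and 30.9%. The snoRNP protein Nop56 rose 1.54-fold in deficient (adjusted p = 2.03e-11), and the polymerase I factors Taf1b and Polr1e 1.66-fold and 1.55-fold in WT (adjusted p = 3.58e-08 and 8.48e-08). Taf1d was 1.55-fold higher in mimetic than in WT (adjusted p = 8.62e-10).

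For the 3 members with the widest range, the genes with the most similar profile over the 12 libraries were read among 8859 others of at least 10 CPM, as a description, since all points share their libraries and the lines differ widely. Hdac6 was followed by the chaperone clusterin (Clu, r = 0.994), the endocytic adaptor Epn3 (r = 0.992) and the tropomyosin Tpm3 (r = 0.992). All 3 lie on other chromosomes (14, 11 and 3). Clu averaged 663 CPM in vector against 140 in WT, with deficient at 523 and mimetic at 391. Hdac5 was most like the ferritin chain Fth1 (r = 0.97), the splicing protein Snrpd2 (r = 0.959) and the replication helicase subunit Mcm6 (r = 0.957). Sirt2 was most like Fbxo18 (r = 0.957), Shfm1 (r = 0.955) and Khdrbs3 (r = 0.953).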

How the data were processed

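RNA of 12 libraries (4 lines, 3 each) was made into 3′ tag libraries (QuantSeq forward kit), per the labels' protocols. The authors deposited 1 table of raw counts per gene. The submitters' processing notes name STAR and mm10; for the counting tool, its annotation and its strand setting nothing was given in the sources used. The smallest count is 1, so genes with 0 counts in any library are not analysed here. Coordinates are from GENCODE M21 (GRCm38), where 12195 of 12208 IDs were found.

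Counts were fitted with edgeR 4.0.16 (R 4.3.3): filterByExpr (12027 genes kept), TMM, a quasi-likelihood model with 1 coefficient per line over all libraries, two-sided tests of 6 pairs, and Benjamini-Hochberg adjustment over all genes. The standard error is the log2 fold change divided by the square root of F. Alternatives were DESeq2 1.42.0, limma-voom (limma 3.58.1), RLE factors, library size only, other filters, fits of 2 lines, a replicate block and leaving out each library. Leaving out 2 divergent libraries together was chosen after seeing the data. The edgeR fit alone was tested on simulated data, in the comparison of WT with vector. Replicates differed by more than sampling noise.

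The members and gene lists were chosen with earlier results of these data known. Named are all members; up to 4 genes per partner list with the smallest F test p, each with its widest comparison; and 3 genes most like each of the 3 members of at least 10 CPM with the widest range. Hdac2, Sirt4, Hdac8, genomic neighbours, overlapping genes, promoter windows and class shares were added after values were seen.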

Additional observations from a re-analysis of the deposited data

Results flagged for a closer look

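Hdac5 was singled out because it was called higher than vector in some Zeb1 lines and lower in another, and the lines also differed when compared directly. Deficient minus WT was -0.76 on the log2 scale (SE 0.064, adjusted p = 3.66e-09 by edgeR's quasi-likelihood test), with all 3 deficient libraries below and all 3 WT libraries above the vector range. Mimetic minus deficient was 0.55 (SE 0.064, adjusted p = 1.61e-06), with all 3 mimetic libraries above all 3 deficient ones. This second flag rests on the call of mimetic over vector (0.18, adjusted p = 0.0188 by the same test), whose libraries overlapped. That call was lost without mimetic replicate 2 or 3 or without vector replicate 1 or 2. The rule required both direct comparisons to be called, so their p-values add no support to it.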

How the results depend on the processing

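The number of genes called stayed within 1.5 times in every alternative run. Library-size scaling moved the split of calls most, in mimetic against vector from 3438 higher and 3720 lower to 4334 and 3004, against deficient from 1510 and 1789 to 1982 and 1509, and against WT from 2780 and 2618 to 3506 and 1980; it also gave 1 member higher in deficient against vector in place of 0. Leaving out 1 library gave 0 to 1 members higher in deficient against vector, 1 to 2 higher in mimetic against vector and 0 to 1 lower in mimetic against deficient. Of the members' differences under the other planned settings, 456 kept their direction and call, 10 gained a call, 8 lost one and 6 changed sign; on leaving out 1 library, 314 kept both, 9 gained, 26 lost and 11 changed sign. All sign changes were uncalled on both sides, and the cause was not tested. Hdac7 in WT against vector turned from -2e-04 to 0.01 with DESeq2 and with RLE factors, 0.02 with library size only, 0.0024 with no filter and 0.0028 with only those lines, and ran from -0.02 to 0.05 on leaving out 1 library. Hdac7 in mimetic against deficient turned from 0.0047 to -0.0018 with the 5 CPM filter and ran from -0.1 to 0.14. The same ranges were -0.19 to 0.01 for Hdac4 in deficient and -0.08 to 0.12 in mimetic against vector (-0.08 also without vector replicate 3 and deficient replicate 3 together), -0.1 to 0.14 for Sirt6 in mimetic against vector and -0.13 to 0.04 for Sirt7 in mimetic against deficient.

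Deviations from the line mean were correlated between libraries of different lines over 9702 genes. Of pairs with the same replicate number, 5 of 18 had a correlation over 0.1 (median 0.01, highest 0.33). Of pairs with different numbers, 7 of 36 did (median -0.01, highest 0.23). The number was not taken as pairing. With the replicate number as a block, 7852 genes were called in WT, 7080 in deficient and 7250 in mimetic against vector, 3378 in mimetic against deficient, 5514 in mimetic against WT and 6573 in deficient against WT. Among the members, the block changed the call of Sirt2 and Sirt6 in mimetic against WT and no other. Depth limits Sirt3 most, at 102 to 187 counts per library.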

Other observations

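The lower level of the Hdac6 end of the X chromosome in WT did not reach past the step from 20 to 30 Mb. In steps of 10 Mb, the median log2 fold change of WT against vector was -0.82 (24 genes other than Hdac6), -0.78 (12 genes) and -0.75 (13 genes), and then 0.04 (17 genes). The genes below 0 numbered 24 of 24, 11 of 12, 12 of 13 and 4 of 17 in the same steps. The counts hold no measure of DNA copy number, and the state of the chromosome in these lines was not tested.

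Around Sirt3, 12 of 16 genes within 500 kb were called lower in WT than in vector (33.6% of all tested genes were), with a median log2 fold change of -0.49 beside -0.23 for chromosome 7 and -0.15 for Sirt3 itself. This was not confined to WT. Against vector, 10 of the 16 were called lower in deficient (median -0.26, all genes 29.8%) and 11 in mimetic (median -0.22, all genes 30.9%). Hdac3 was 0.05 above vector in WT, while the 248 other chromosome 18 genes of at least 5 CPM had a median of -0.26. Sirt1 was 0.52 above vector in mimetic, where its 5 neighbours had a median of -0.07.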
